A study of Mus musculus with 6 samples.

Results

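The genes described here are the synaptic vesicle release machinery, picked by a rule on their symbols that was set with earlier results of these data known. They are synaptotagmins (*Syt*), syntaxins (*Stx*) and syntaxin-binding proteins (*Stxbp*), *Vamp* and *Snap* genes, synapsins, SV2 proteins, *Rab3*, *Rims*, *Unc13*, complexins, *Doc2*, synaptophysin, *Sypl*, synaptogyrins, *Bsn* and *Pclo*. The rule found 78 of the 13886 genes in the table, and *Cplx4*, *Stx11*, *Stx19*, *Syngr4*, *Syt8* and *Vamp9*, which it also covers, were not analysed here. Libraries came from KissRibo females (Kiss1Cre+/Rpl22HA+/+), in which Cre made under the *Kiss1* gene switches on an HA-tagged ribosomal protein, so that RNA bound to tagged ribosomes can be immunoprecipitated from micro-punches of the medial amygdala (MeA). All females lost their ovaries (OVX) at 8 weeks, had an estradiol (E2) implant for 4 days and then 7 days without it. The E2 group then had E2 for 5 days, and the OVX group had none. Each group had 3 libraries, each from 1 pool of 4 mice, so the spread is that between pools. Recombination by Cre is lasting, so a cell keeps the tag after its *Kiss1* expression has fallen, and only immunoprecipitated RNA was sequenced, so release-machinery RNA of tagged cells cannot be set against that of the whole punch.

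A nerve terminal holds transmitter in vesicles that synapsins tether in a reserve pool and that Rab3, RIM and Munc13 proteins bring to the active zone and prime. Fusion is driven by a SNARE complex of a vesicle protein (VAMP) with syntaxin and SNAP-25 on the plasma membrane, which syntaxin-binding proteins and complexins help to assemble and hold, and synaptotagmins sense the calcium that triggers release. The same families serve dense-core vesicles, which carry neuropeptides such as kisspeptin, and other members act in membrane traffic common to all cells.

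The unit is the authors' log2 CPM, the log2 of a read count scaled to library size (with TMM scaling between libraries), and a difference is the E2 mean minus the OVX mean on that scale. The scaled library sizes were between 28.1M and 34.2M counts, and the correlation between libraries across genes, which are not independent replicates, was between 0.977 and 0.989. *Kiss1* itself was between 1.13 and 2.29 log2 CPM in OVX and between 3.45 and 3.80 in E2 libraries. Markers of other cells were present in every library, with the 7 astrocyte genes summing to between 1353 and 1771 CPM and the 6 oligodendrocyte genes to between 1563 and 2408 CPM in all 6 libraries. All 7 astrocyte, 5 of the 6 oligodendrocyte and all 5 endothelial genes had a higher mean with E2 (medians of 0.18, 0.10 and 0.14), with 2, 1 and 0 of them at an unadjusted p under 0.05 and 0 after adjustment. Of 6 microglia genes 2 were higher and 4 lower (median -0.05), with 0 at an unadjusted p under 0.05. The part of these cells in the values below was not tested. The pituitary genes *Gh*, *Prl* and *Pomc* summed to between 2.02 and 1029 CPM and were highest in OVX replicate 2. In these bulk libraries, fewer cells of a type and less RNA per cell cannot be told apart.

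The release machinery was abundant, and most of its differences between treatments were small. Together the 78 genes held between 1.99% and 2.15% of the CPM of a library, 30 of them were among the highest 1388 genes by mean log2 CPM, and 75 were at or above 0 log2 CPM in every library. By limma with Benjamini-Hochberg adjustment over all genes, 1 member passed an adjusted p of 0.05, *Sv2b*, which was lower with E2. Over all genes 0.288% passed, 0.23% higher and 0.0576% lower with E2, and 0 members passed in the higher direction. At an unadjusted p under 0.05 there were 11 members (14.1%, against 8.56% of all genes), 8 lower (against 4.34% of all genes) and 3 higher (against 4.21%). In 17 members (21.8%, against 13.7% of all genes) the OVX and E2 libraries did not overlap, with 11 members lower (14.1%, against 6.82%) and 6 higher (7.69%, against 6.85%).

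The members also did not move as a block. The difference was negative in 46 and positive in 32 members (59.0% negative, against 48.9% of all genes), with a median of -0.03 against 0.003 for all genes, and its size was under 0.1 in 48 of the 78. The median size of a difference was 0.0889 in members and 0.089 in all genes, while the median SE was 0.0789 in members and 0.107 in all genes. Highly expressed genes as a whole leaned the same way, and at a mean log2 CPM of at least 8 the difference was negative in 16 of 22 members (72.7%) and in 61.3% of 729 genes. At that level 5 of the 22 members (22.7%) were lower at an unadjusted p under 0.05, against 97 of the 729 genes (13.3%), and 5 (22.7%) had E2 libraries all below the OVX libraries, against 109 of the 729 genes. Members varied less between libraries than all genes, but their median level was higher (6.45 against 4.76 log2 CPM). At a mean log2 CPM of at least 8 the median SE was 0.0605 in members and 0.0588 in all genes. The median size of a difference at that level was 0.0767 in members and 0.0604 in all genes. The gap between the highest and lowest of the 6 libraries was under 0.2 in 22 members and over 1 in only 3 (*Syt2*, *Syt15* and *Unc13d*), with a median of 0.303 in members and 0.356 in all genes.

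**Figure D1:**
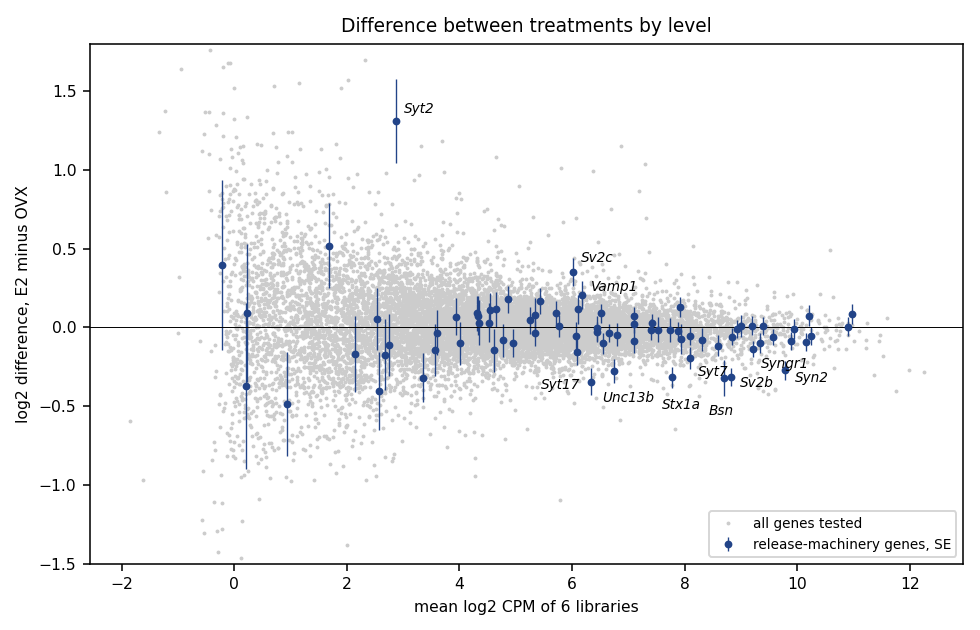
Difference between treatments (E2 minus OVX, log2) against the mean log2 CPM of the 6 libraries, with the 78 release-machinery genes in blue (bars: moderated SE) and all other genes in grey. The 11 members with an unadjusted p under 0.05 are named, and 32 genes with a difference above 1.8 or below -1.5 lie outside the axis.

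Levels of different genes were compared as log2 CPM per kilobase of the longest transcript. Among the 10 highest members were *Syp* at 9.39, *Vamp2* at 9.01, *Snap25* at 8.68, *Rab3a* at 8.56, *Syn1* at 8.24, *Snap47* at 8.08, *Cplx2* at 7.91, *Syn2* at 7.84 and *Syt1* at 7.62, which between them supply a vesicle membrane protein, SNAREs, Rab3A, synapsins, a complexin and a calcium sensor. Over the 6 libraries *Syp* spanned 9.31 to 9.48, *Vamp2* 8.91 to 9.09, *Snap25* 8.59 to 8.81 and *Rab3a* 8.46 to 8.64. The ranges of *Snap25* and *Rab3a* overlapped, but all of these genes kept their order within every library. The lowest members were *Syt15* at -2.07, *Unc13d* at -1.81, *Vamp5* at -1.17, *Cplx3* at -0.58 and *Syt2* at 0.08. The order depends on the length used. With the median length of a gene's transcripts, *Syp*, *Vamp2* and *Snap25* were again the 3 highest, but only 6 of the 10 highest stayed among them. Of the exonic bases of *Syp* 16.8% and of those of *Snap47* 11.6% are shared with another gene, and without strand in the library these reads cannot be told apart.

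**Figure D2:**
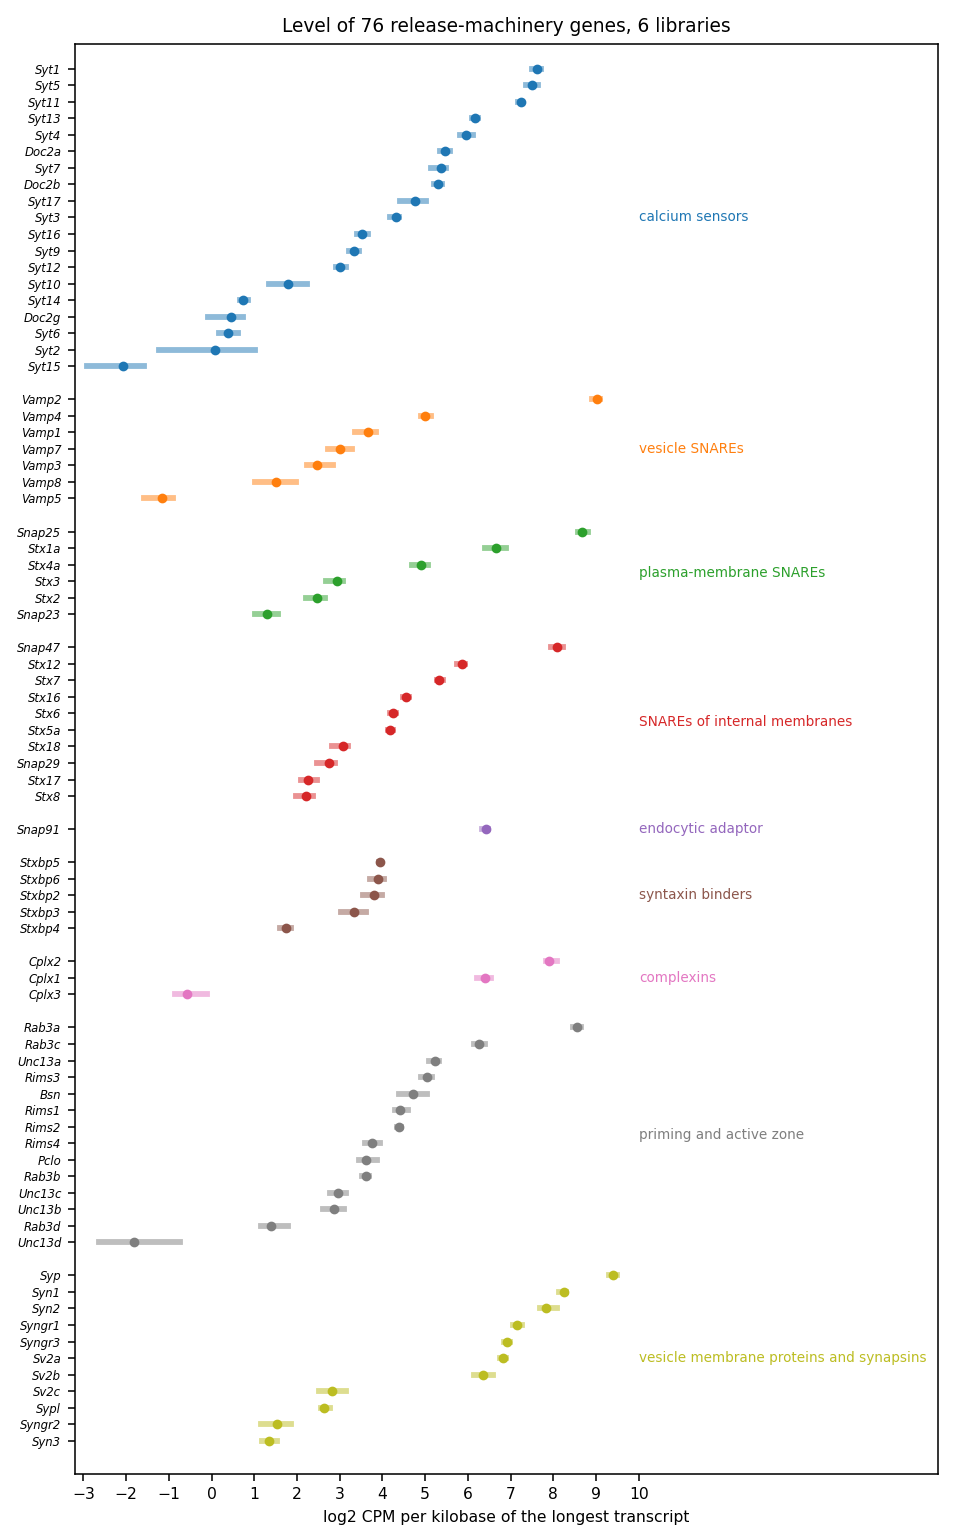
Level of 76 of the 78 genes in log2 CPM per kilobase of its longest transcript, grouped by role. Points are means of the 6 libraries and bars run from the lowest to the highest library. *Vamp2*, *Snap25*, *Snap47* and *Rab3a* each lie above all other genes of their group in every library.

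Of the 11 vesicle membrane proteins and synapsins, 9 had a negative difference (median -0.03), 1 passed the test (against 0.288% of all genes) and 4 had E2 libraries all below the OVX libraries (against 6.82%). Synaptic vesicle glycoproteins 2 (SV2) are transporter-like proteins of the vesicle membrane that are made from separate genes. *Sv2b* (ENSMUSG00000053025, chromosome 7 from 75114894 to 75309262, GRCm38) had 9.06, 8.94 and 8.93 log2 CPM in OVX and 8.60, 8.67 and 8.71 in E2 libraries. All E2 libraries lay below all OVX libraries, and the difference was -0.32 (SE 0.06, 95% interval -0.44 to -0.19, adjusted p = 0.0392 by limma), a level with E2 of 0.804 times that in OVX. Its adjusted p was between 0.0338 and 0.235 with 1 library left out and was over the threshold without any 1 of OVX replicates 1, 2 and 3 or E2 replicates 1 and 2. *Sv2a*, the most widely expressed of the family and the binding site of the drug levetiracetam, had 8.90, 8.92 and 8.98 in OVX and 8.89, 9.02 and 8.87 in E2 libraries, with a difference of -0.01 (SE 0.06, 95% interval -0.13 to 0.11). *Sv2c*, known for its expression in basal ganglia and brainstem, had 5.69, 5.93 and 5.88 in OVX and 6.32, 6.22 and 6.02 in E2 libraries. Its E2 libraries all lay above the OVX libraries, with a difference of 0.35 (SE 0.09) that did not pass the test (adjusted p = 0.172).

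The upstream sequence of the 3 SV2 genes is shown because their differences between treatments had different signs or sizes although they encode the same kind of protein. Each is the 250 bases before a transcription start in RefSeq (GRCm38.p6), read 5′ to 3′ on the gene's strand, and capitals mark the GC box GGGCGG, the TATA box TATAAA, the estrogen response element GGTCANNNTGACC, its arm GGTCA or the cAMP response element TGACGTCA on either strand. For *Sv2b* the outermost of 4 starts is shown. The windows are *Sv2a* at chr3:96180977-96181226 on the plus strand, *Sv2b* at chr7:75309263-75309512 on the minus strand and *Sv2c* at chr13:96132578-96132827 on the minus strand.
Sv2a: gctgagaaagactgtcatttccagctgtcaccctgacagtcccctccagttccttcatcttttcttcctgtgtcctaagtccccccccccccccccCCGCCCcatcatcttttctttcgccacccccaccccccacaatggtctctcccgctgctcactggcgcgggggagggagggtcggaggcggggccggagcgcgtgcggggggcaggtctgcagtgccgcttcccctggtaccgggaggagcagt
Sv2b: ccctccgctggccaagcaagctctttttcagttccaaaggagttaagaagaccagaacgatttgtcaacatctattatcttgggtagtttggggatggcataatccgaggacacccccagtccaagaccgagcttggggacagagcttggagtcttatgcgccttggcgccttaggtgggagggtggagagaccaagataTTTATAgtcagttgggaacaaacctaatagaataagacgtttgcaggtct
Sv2c: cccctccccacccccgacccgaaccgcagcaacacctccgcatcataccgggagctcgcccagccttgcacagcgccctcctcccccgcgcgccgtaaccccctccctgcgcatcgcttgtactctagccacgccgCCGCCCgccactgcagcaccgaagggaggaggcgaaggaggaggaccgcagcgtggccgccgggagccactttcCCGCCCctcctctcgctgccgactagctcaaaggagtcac
The *Sv2a* and *Sv2c* windows hold 1 and 2 GC boxes and a GC content of 66% and 70.8%. That of *Sv2b* holds no GC box, 1 TATA box and a GC content of 48.8%. None of the 3 holds the estrogen element or its arm, which says only that these letters are not in these windows.

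Over the 59 members with a RefSeq window (74 windows in all), the same features were counted in the 250 upstream bases beside all 32851 windows of 27025 genes, whether or not those genes are expressed here. The GC box was in 64.9% of the members' windows and 32.7% of all windows, and the median GC content was 61.2% and 52.4%. The TATA box was in 6.76% and 12.4%, the cAMP response element in 2.70% and 1.55%, and the 5-letter arm of the estrogen element, which the full element contains, in 31.1% and 35.2%. The full estrogen element was in 0 of the 74 windows and in 0.0639% of all windows. These matches are descriptions of letters and not of bound sites.

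Synapsins coat the vesicle and tie it to the reserve pool. *Syn2* (chromosome 6 from 115134902 to 115282006) had 10.04, 9.88 and 9.85 in OVX and 9.64, 9.64 and 9.67 in E2 libraries. The groups did not overlap, the E2 libraries lay within 0.031 of each other, and the difference was -0.27 (SE 0.06, adjusted p = 0.113). *Syn1* had a difference of -0.01 (SE 0.06, 95% interval -0.14 to 0.12) and *Syn3*, at a mean of 3.60 log2 CPM, one of -0.03 (SE 0.14). Of the exonic bases of *Syn3* 14.1% are shared with another gene. Synaptophysin, *Syp*, the most abundant tetraspan protein of the vesicle, ranged from 10.82 to 10.99 over all 6 libraries with a difference of 0.01 (SE 0.06, 95% interval -0.13 to 0.14). Its relatives the synaptogyrins had differences of -0.14 for *Syngr1* (SE 0.05, adjusted p = 0.465, groups apart), -0.17 for *Syngr2* (SE 0.24) and -0.02 for *Syngr3* (SE 0.06), and *Sypl*, which is found in many tissues, one of -0.10 (SE 0.09, groups apart).

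**Figure D3:**
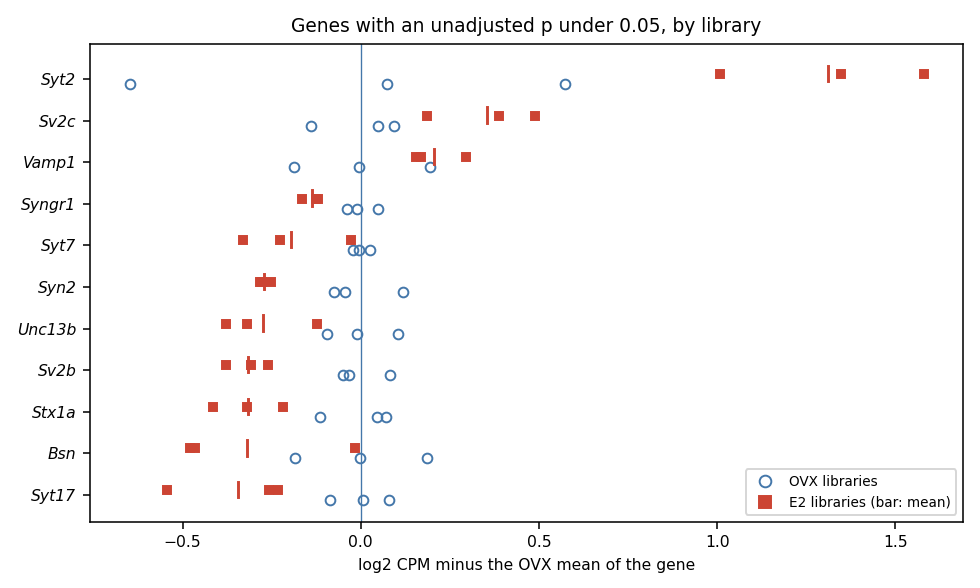
The 11 members with an unadjusted p under 0.05, each library as its log2 CPM minus the OVX mean of that gene (OVX open circles, E2 filled squares, E2 mean as a bar). Groups are apart in 9 of them and overlap in *Bsn* and *Vamp1*, and 1 gene, *Sv2b*, passed after adjustment over all genes.

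Of the 14 priming and active zone genes, 12 had a negative difference (median -0.08) and 0 passed the test. Munc13 proteins open syntaxin and prime vesicles, and their genes are *Unc13a* to *Unc13d*. *Unc13b* had 6.87, 6.98 and 6.78 in OVX and 6.56, 6.50 and 6.75 in E2 libraries, with the groups apart and a difference of -0.27 (SE 0.08, adjusted p = 0.263). *Unc13a*, which encodes the main Munc13 of forebrain glutamate synapses, had a difference of -0.11 (SE 0.07), *Unc13c* 0.11 (SE 0.09) and *Unc13d*, at the lower end of detection with 0.654 to 2.41 CPM, -0.37 (SE 0.53). Bassoon and piccolo are giant scaffold proteins of the active zone. *Bsn* had 8.86, 9.05 and 8.68 in OVX and 8.40, 8.38 and 8.85 in E2 libraries, so that E2 replicate 3 lay among the OVX libraries, with a difference of -0.32 (SE 0.11, adjusted p = 0.413). Without E2 replicate 3 it was -0.47 and passed the test (adjusted p = 0.0338), and with any other library left out it was between -0.41 and -0.23 and did not pass (adjusted p of 0.261 to 0.843). *Pclo* had a difference of -0.07 (SE 0.09).

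*Bsn*, *Pclo*, *Unc13a* and *Unc13b* are the 4 members with a longest transcript over 10000 nt, and all 4 differences were negative (median -0.19). Of the 385 genes with so long a transcript, 62.1% had a negative difference (median -0.03), against 48.9% of all genes. Relative to each gene's mean, the 4 members had a median of 0.12, 0.25 and -0.02 in OVX and -0.17, -0.19 and 0.11 in E2 libraries, so OVX replicate 3 lay below E2 replicate 3. The part of transcript length in these differences was not tested. RIM proteins link Rab3 on the vesicle to Munc13 and calcium channels, and *Rims1*, *Rims2*, *Rims3* and *Rims4* had differences of -0.08, -0.04, -0.02 and -0.05 with overlapping groups. Of the Rab3 GTPases, *Rab3a*, the abundant form at synapses, had 9.20, 9.09 and 9.28 in OVX and 9.16, 9.27 and 9.19 in E2 libraries and a difference of 0.01 (SE 0.06, 95% interval -0.12 to 0.14). *Rab3b* had -0.04, *Rab3c* -0.10 and *Rab3d* -0.32 (SE 0.16, adjusted p = 0.604, groups apart).

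Among the 7 plasma-membrane SNAREs, 4 had a positive and 3 a negative difference (median 0.01) and 0 passed the test. *Stx1a*, a syntaxin of synaptic release sites (chromosome 5 from 135023482 to 135051100), had 8.003, 7.82 and 7.98 in OVX and 7.52, 7.61 and 7.71 in E2 libraries, with the groups apart and a difference of -0.32 (SE 0.07, adjusted p = 0.0913). It passed the test without OVX replicate 2 (adjusted p = 0.0365) and without E2 replicate 3 (adjusted p = 0.0429), and it was over the threshold without any other library. *Snap25*, the partner of syntaxin at the plasma membrane, had a difference of 0.08 (SE 0.06, 95% interval -0.06 to 0.22). Its relative *Snap23*, which serves secretion outside neurons too, was at 2.46 to 3.01 log2 CPM with a difference of -0.11 (SE 0.20). *Stx4a*, which acts in exocytosis of many cell types, differed by 0.17 with the groups apart (SE 0.08, adjusted p = 0.61), and 5.25% of its exonic bases are shared with another gene.

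The 7 vesicle SNAREs had a median difference of -0.01 and 0 passed the test. *Vamp2* (synaptobrevin-2), the vesicle SNARE of most forebrain synapses, had 10.22, 10.15 and 10.23 in OVX and 10.05, 10.17 and 10.10 in E2 libraries and a difference of -0.09 (SE 0.06, 95% interval -0.21 to 0.03). *Vamp1*, which prevails in the spinal cord and brainstem, had 6.06, 6.26 and 5.88 in OVX and 6.22, 6.23 and 6.36 in E2 libraries, with a difference of 0.21 (SE 0.09, adjusted p = 0.538) and overlapping groups. Per kilobase *Vamp2* held at least 97.2% of the sum of both genes in each library, and at least 96.8% with the median transcript length. *Vamp8*, a SNARE of endosomes and of secretion outside neurons, had the largest difference of the group by size (-0.40, SE 0.25) at a level of 2.08 to 3.03 log2 CPM, and *Vamp5*, a muscle form, was between 0.873 and 1.39 CPM. The 10 SNAREs of internal membranes, which act in the Golgi, endosomes and lysosomes, moved least, with 7 positive and 3 negative differences and none over 0.115 in size. *Snap47* had a difference of 0.01 (SE 0.07), *Stx8* of 0.08 (SE 0.13) and *Stx18* of 0.11 (SE 0.11), of whose exonic bases 32.3% are shared with other genes. *Snap91*, a clathrin adaptor for vesicle retrieval that shares only a symbol with the SNAP-25 family, had a difference of -0.06 (SE 0.05).

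Syntaxin binders and complexins, which set when SNAREs engage, had 0 genes past the test. *Stxbp5* (tomosyn) was the steadiest of all members, between 7.06 and 7.12 in the 6 libraries. *Stxbp6* had the largest difference by size of the 6 binders (-0.15, SE 0.08, adjusted p = 0.66) and *Stxbp4* had 0.09 (SE 0.11). *Cplx2* had a difference of 0.08 (SE 0.07) and *Cplx1* of -0.01 (SE 0.08). *Cplx3*, a form best known from retina, was between 1.57 and 2.65 CPM, and its E2 libraries lay below the OVX libraries with a difference of -0.49 (SE 0.33, adjusted p = 0.753).

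The 19 synaptotagmin and *Doc2* genes were grouped as calcium sensors by symbol, although some, as given below, do not act as calcium triggers. They split evenly, with 10 positive and 9 negative differences (median 0.03) and 0 past the test. *Syt1*, the fast sensor of most forebrain synapses, had 9.98, 9.93 and 9.89 in OVX and 9.78, 9.84 and 9.91 in E2 libraries, with a difference of -0.09 (SE 0.06, 95% interval -0.21 to 0.03). *Syt2*, the related fast sensor that prevails in the hindbrain and in some inhibitory neurons, had the largest difference of all 78 genes. It was at 1.56, 2.29 and 2.78 log2 CPM in OVX and 3.79, 3.22 and 3.56 in E2 libraries, or 2.95 to 6.89 CPM and 9.31 to 13.8 CPM. The groups were apart, with a difference of 1.31 (SE 0.27, 95% interval 0.73 to 1.89, adjusted p = 0.0704), a level with E2 of 2.48 times that in OVX. The OVX libraries were 1.22 apart, and without OVX replicate 3, the highest of them, the difference was 1.60 and passed the test (adjusted p = 0.019). With any other library left out it was between 0.99 and 1.46 and did not pass. Its adjusted p was 0.181 when OVX replicate 1 was dropped and 0.25 when E2 replicate 1 was dropped.

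The window upstream of the outermost of 2 *Syt2* starts (chr1:134646362-134646611, plus strand, RefSeq GRCm38.p6) is shown because *Syt2* had this largest difference. It holds 3 GC boxes and 1 arm of the estrogen element, here as TGACC, all in capitals, at a GC content of 76%.
Syt2: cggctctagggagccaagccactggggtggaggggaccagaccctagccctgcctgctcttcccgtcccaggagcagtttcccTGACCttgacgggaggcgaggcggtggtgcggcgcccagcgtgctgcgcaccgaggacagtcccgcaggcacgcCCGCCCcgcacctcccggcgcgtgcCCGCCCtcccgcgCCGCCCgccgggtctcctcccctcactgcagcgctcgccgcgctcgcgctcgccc
The arm was in 35.2% of all windows, as given above. The window of the other *Syt2* start (chr1:134709050-134709299, plus strand) holds 2 GC boxes and no arm, at a GC content of 66.4%.

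*Syt17*, an atypical synaptotagmin with no known role as a calcium trigger, had 6.59, 6.42 and 6.52 in OVX and 6.28, 5.97 and 6.25 in E2 libraries, apart by group, with a difference of -0.34 (SE 0.09, adjusted p = 0.160). *Syt7*, a slow high-affinity sensor of asynchronous release, had 8.17, 8.19 and 8.22 in OVX and 7.97, 7.87 and 8.17 in E2 libraries. The groups were apart but E2 replicate 3 reached the lower end of OVX, and the difference was -0.20 (SE 0.07, adjusted p = 0.422). *Syt4* and *Syt11*, which do not act as calcium triggers and occur on dense-core and other vesicles, had differences of 0.13 (SE 0.06, adjusted p = 0.6) and -0.06 (SE 0.05). *Syt12* differed by 0.18 with groups apart (SE 0.08, adjusted p = 0.6), though 17.2% of its exonic bases are shared with another gene. *Doc2a* and *Doc2b*, sensors of spontaneous release, had differences of -0.04 (SE 0.07) and 0.03 (SE 0.06), and *Syt15*, at 0.481 to 1.21 CPM, one of 0.40 (SE 0.54). Of the exonic bases of *Doc2a* 39.4% and of those of *Syt4* 14.5% are shared with another gene. The 23 members not described singly had adjusted p-values of at least 0.634 and differences between -0.17 and 0.11, except *Doc2g* at 0.52 (SE 0.27), of whose exonic bases 63.5% are shared with another gene. Of these 23, 11 had a negative difference, and *Doc2g* and *Stx16* (0.09) had groups apart.

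Whether paralogs responded differently was tested on the log2 ratio of 22 pairs, each by a 2-sided exact permutation test over the 6 libraries, for which the smallest possible p is 0.1. In 8 pairs the ratio in the E2 libraries lay wholly to one side of that in the OVX libraries (exact permutation p = 0.1, 0.275 adjusted over the 22 pairs), so this test could not put any pair past an adjusted p of 0.05. The ratio of *Sv2a* to *Sv2b* was higher with E2 by 0.31, from 0.31 ± 0.11 to 0.62 ± 0.10 (SD, n = 3 libraries each). That of *Sv2a* to *Sv2c* had a difference of -0.36 and that of *Sv2b* to *Sv2c* one of -0.67, from 3.86 ± 0.19 to 3.19 ± 0.21 (SD, n = 3 libraries each). The ratio of *Syn1* to *Syn2* was higher by 0.26 and that of *Unc13a* to *Unc13b* by 0.16. The ratio of *Syt1* to *Syt2* had a difference of -1.40 and that of *Bsn* to *Pclo* one of -0.25. The other 14 pairs overlapped, among them *Vamp2* and *Vamp1* (-0.30), *Snap25* and *Snap47* (0.07), *Cplx1* and *Cplx2* (-0.09), *Syt1* and *Syt7* (0.11) and *Rims1* and *Rims2* (-0.05). Several pairs share a gene and all share the libraries, so they are not independent.

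**Figure D4:**
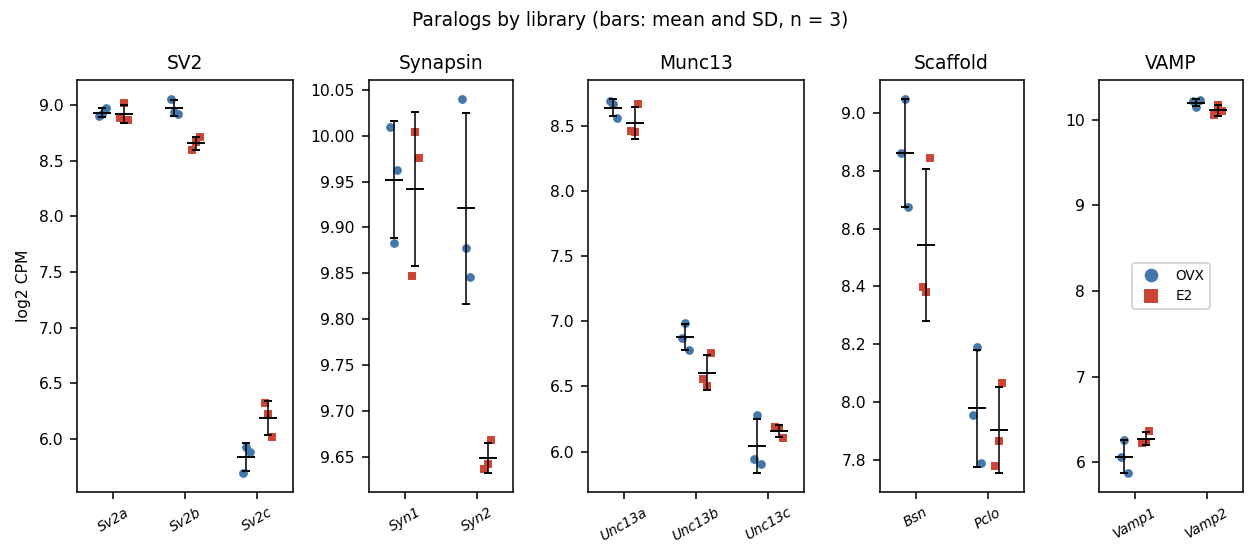
Log2 CPM of 5 paralog groups in each library (OVX blue circles, E2 red squares, bars mean and SD, n = 3 libraries), on a separate axis range for each panel. *Sv2b* and *Syn2* have E2 libraries below all OVX libraries, while *Sv2a* and *Syn1* overlap.

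Other genes of the release pathway that the symbols do not cover were read from a list of 82, of which 81 had a row. Of these 81, 0 passed the adjusted test and 12 had an unadjusted p under 0.05 (9 lower and 3 higher, 14.8%, against 8.56% of all genes). The difference was negative in 55 (median -0.03), against 48.9% of all genes. Their median level was 7.78 log2 CPM, against 4.76 in all genes. At a mean log2 CPM of at least 8, 97 of 729 genes were lower and 38 higher at an unadjusted p under 0.05. At that level 61.3% of genes had a negative difference, so these counts are not read as particular to the pathway. Of the roles in the list, the 28 other active zone proteins and effectors leaned most, with 23 negative differences (median -0.07, against 48.9% of all genes negative). Of these 28, 5 were lower at an unadjusted p under 0.05, against 4.34% of all genes and 13.3% of those at a mean log2 CPM of at least 8. This role was singled out after its values were seen. The 4 genes of SNARE recycling, which include the ATPase NSF, differed by at most 0.038 in size, and the 7 calcium channel genes by at most 0.0916. The 22 endocytosis genes had 15 negative differences (median -0.03), and the 9 genes of dense-core cargo sorting had 6 positive ones (median 0.08). The smallest p was that of *Scg2* (secretogranin II, a dense-core vesicle protein), at 10.25, 10.25 and 10.50 in OVX and 10.92, 10.98 and 10.57 in E2 libraries, a difference of 0.49 (SE 0.10, adjusted p = 0.0608). Next were the vesicular glutamate transporters, with a difference of 0.40 for *Slc17a6*, which encodes Vglut2 (SE 0.09, adjusted p = 0.117), and of -0.42 for *Slc17a7*, which encodes Vglut1 (SE 0.11, adjusted p = 0.174). In the paper's own limma test with voom, on the same libraries, *Scg2* was higher with E2 at an adjusted p under 0.05.

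Of the markers of other neurons listed here, none passed the adjusted test. A list of 9 genes (*Slc17a7* among them) was chosen as markers of excitatory neurons of forebrain areas other than the MeA. The paper, however, lists Vglut1 among transcripts of MeA *Kiss1* cells, and which cells these RNAs came from was not tested. All 9 had a lower mean with E2, 7 of them at an unadjusted p under 0.05 (against 4.34% of all genes) and 0 after adjustment. Their summed level was between 1011 and 1314 CPM in OVX and between 772 and 1006 CPM in E2 libraries. By mean log2 CPM *Slc17a7* was the highest of them at 9.47, followed by *Tbr1* at 6.15. The mean log2 CPM of the list was 5.67, 5.35 and 5.21 in OVX and 4.90, 4.92 and 5.23 in E2 libraries, so E2 replicate 3 was nearest to OVX. E2 replicate 3 was also nearest to the OVX mean in 8 of the 11 members with an unadjusted p under 0.05, and E2 replicate 1 was nearest for *Syt17* and *Vamp1* and E2 replicate 2 for *Syt2*. The 3 GABA neuron markers summed to between 358 and 434 CPM in OVX and between 423 and 509 CPM in E2 libraries, and the 7 general neuron markers to between 3297 and 3456 and between 3402 and 3563 CPM. No marker of these lists was at 0. With the forebrain excitatory mean as a covariate, an alternative chosen after the data were seen, 0 members passed the test (the count over all genes is given below). What was left of the difference was 64.7% for *Sv2b*, 66.3% for *Stx1a*, 56.6% for *Syn2*, 69.6% for *Syt17*, 53.4% for *Syt2*, 54.4% for *Unc13b*, 53.7% for *Syt7*, 56.9% for *Syngr1*, 34.7% for *Sv2c* and 16.9% for *Bsn*, while the difference of *Vamp1* became larger (155.1%, from 0.21 to 0.32). The mean differs between the groups, so this fit cannot tell it apart from treatment.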

How the data were processed

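RNA-seq was performed on the 6 immunoprecipitated libraries (unstranded, poly(A)-enriched). Per the submitters' processing notes and methods, the authors used FastQC 0.11.8, Trimmomatic 0.38, STAR 2.6.0a and RSEM on GRCm38, kept protein-coding genes above a low-expression limit, and applied TMM scaling and voom. The deposited values are the resulting log2 CPM, in which voom adds 0.5 to each count. The authors' deposited table of comparisons holds fold changes, a moderated statistic and p-values and was not used.

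Groups came from the sample titles. The log2 CPM of 13886 genes were fitted in R 4.3.3 by limma 3.58.1 with treatment alone, an empirical Bayes mean-variance trend and 2-sided p-values, adjusted over all genes by Benjamini-Hochberg at a threshold of 0.05. Scaled library sizes (28.1M to 34.2M counts) were read from each library's lowest value, taken as a count of 0, and the counting depth of single values is known only through them. The script was tested on simulated data. Gene positions, transcript lengths and shared exons came from GENCODE release M21 (GRCm38), and *Vamp7* lay on an unplaced scaffold.

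The members, roles, paralog pairs, pathway list and marker lists were chosen with earlier results of these data known. The genes named are those past the threshold, those with an unadjusted p under 0.05 (up to the 15 smallest), the highest, lowest and most changed gene of each role, the genes of the paralog pairs and, in the pathway list, the 3 smallest p-values. *Sypl*, *Syngr2*, *Stx4a*, *Syt12*, *Rab3d*, *Rims3*, *Rims4*, *Doc2g* and *Stx16* were added after their values were seen. Of the genes that this rule names, 2 count among the members but are not reported here.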

Additional observations from a re-analysis of the deposited data

How the results depend on the processing

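Without the mean-variance trend 0 genes were past the threshold in either direction, and so 0 members, with an adjusted p of 0.532 for *Sv2b*. With robust empirical Bayes *Sv2b*, *Stx1a* and *Syn2* passed, all lower (adjusted p of 0.0138, 0.0476 and 0.0464). The count over all genes in that fit is not given here, so these 3 cannot be read as an excess of members. With the forebrain excitatory covariate, chosen after the data were seen, 2 genes passed, 1 higher and 1 lower, and 0 members. Voom weights on rebuilt counts, median centring, quantile normalization and a mean log2 CPM of at least 1 each gave 1 member, *Sv2b*. In these fits 46, 42, 41 and 46 of all genes passed. With log2(CPM + 1) the 1 member was again *Sv2b*, and the count over all genes is not given here. With 1 library left out, 20 to 66 genes passed (19 to 43 higher, 1 to 30 lower), as did 0 to 3 members (0 to 1 higher, 0 to 3 lower), and 22 to 28 members did not overlap between groups (8 to 10 higher, 14 to 19 lower), 28.2% to 35.9% of members against 21.2% to 26.7% of all genes in the same fits. The ratio of each paralog pair that did not overlap kept its sign in every such fit, which had to be so because its groups are apart. With the median transcript length, 6 of the 10 highest members stayed among them. No result past the threshold reversed, though leaving out 1 library could not reverse *Sv2b*, whose groups are apart.

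With the replicate number as a block, 35 genes passed, 30 higher and 5 lower with E2, and 0 members, with an adjusted p of 0.213 for *Sv2b*. The numbers were not taken to pair libraries, since deviations from the group means in same-numbered libraries correlated at -0.02, -0.12 and -0.08 across genes.

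With 3 pools a group, the precision is limited by the spread between pools, with a median SE of 0.0789 for a member's difference.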
